A study of Caenorhabditis elegans with 3 samples.

Results

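The annular furrow collagens are cuticle collagens of Caenorhabditis elegans, a free-living nematode, and 5 of their genes, dpy-2, dpy-3, dpy-7, dpy-8 and dpy-9, were examined here. Members were taken by gene symbol from probes with exactly 1 annotated symbol and a value on every array, which gave 5 of 5 genes, 1 probe each, among 15081 named genes and 19264 genes or unnamed probes in all. RNA of late young adult hermaphrodites, the self-fertile sex, was hybridised against a wild-type mixed reference RNA on 3 arrays with 2 channels each, 1 array for each of RNA preparations 1, 2 and 3, which are called arrays 1, 2 and 3 below. The labels name the reference as wild type, give no strain, age in hours or treatment for the adults, and do not give the make-up of the reference pool or the culture behind each preparation. P-values therefore cover only the variation among 3 preparations, part of which may be technical. Every array bears a different date in its label, so a date effect cannot be told apart from a preparation effect.

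The nematode cuticle is a collagen exoskeleton that the epidermis secretes anew before each moult. Its surface is ringed by narrow circumferential grooves, the annular furrows, and the furrow collagens form bands beneath them. Loss of any of these genes removes the furrows and leaves the animal short and stout, the phenotype that the name dpy (dumpy) stands for. During larval life the collagen genes are transcribed in pulses, once in each moulting cycle, while the adult no longer moults. Furrow loss is also known to switch on osmotic, detoxification and antimicrobial responses in the epidermis of this species.

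Each value is a log2 ratio of the 2 channels, taken as likely adult over reference because the labels place the adult RNA in channel 2 and name it first in each description. If the ratio ran the other way, every "lower" would read "higher". Ratios compare shares of the RNA, so a smaller amount of epidermis and less transcript per epidermal cell cannot be told apart. Spot intensities were not used here, and the background correction and normalisation behind the values are not stated in the labels. The arrays gave values for 19833 to 19913 of 20000 probes, their medians lay between 0.01 and 0.05, and they correlated at r = 0.76 to 0.90 across probes, which are not independent replicates. The adult label was set against stage markers. Of 13 oocyte genes, 11 were higher and 0 lower, and 28 of 30 major sperm protein genes were higher. The share higher over all genes or unnamed probes was 19.6% by the limma test given below. The oocyte genes were led by cpg-1, cbd-1 and rme-2 at 2.48 ± 0.20, 2.46 ± 0.12 and 2.32 ± 0.28 (SD, n = 3). Of 7 early embryo genes, which mark eggs held in the uterus, 2 were lower and none higher, and their median was 0.10. The shares over all genes or unnamed probes were 18.8% lower and 19.6% higher. With 7 genes these counts are therefore no result about the list. The lower genes were sdz-24 at −2.22 ± 0.26 and med-1 at −0.65 ± 0.30, while end-3 lay at 0.45 ± 0.33. With array 2 or array 3 left out, 1 of these 7 was lower.

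All 5 furrow collagens were lower in the adult RNA than in the reference by limma with Benjamini-Hochberg adjustment over 19264 genes or unnamed probes, at a threshold of 0.05. By the same test 18.8% of all genes or unnamed probes were lower. The members' median log2 ratio was −2.16 ± 0.19 (SD of the 3 array medians), against 0.04 over all genes or unnamed probes. At least 2-fold lower were 4 of 5 members, against 8.79% of all genes or unnamed probes. Each of the 15 values, 5 genes on 3 arrays, lay below 0.

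**Figure D1:**
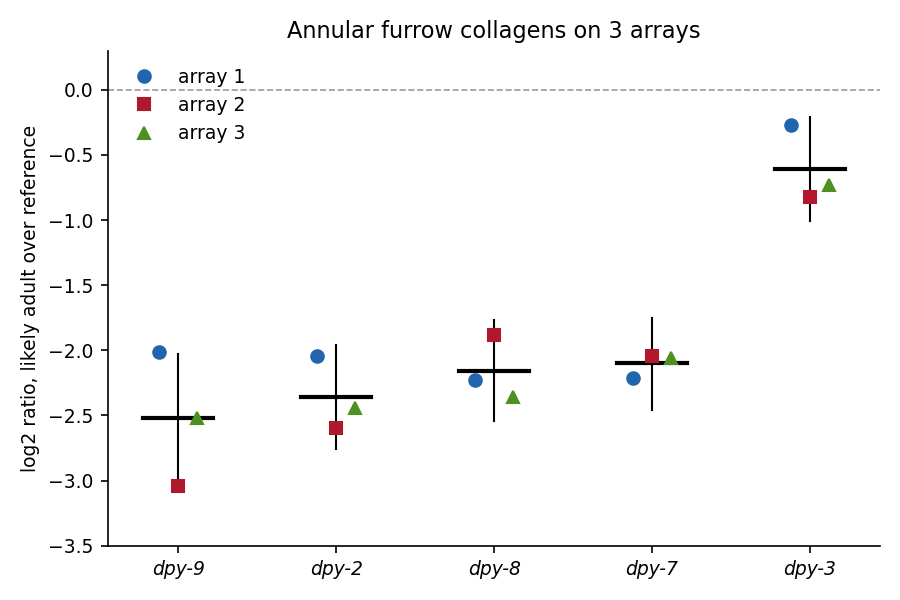
Log2 ratios of the 5 furrow collagens, likely adult over reference, in order of their means. Coloured points are the 3 arrays, thick bars the mean and thin lines limma's moderated 95% confidence interval; 4 genes lie near −2 or below on every array except dpy-8 on array 2 at −1.88, and dpy-3 lies between −0.82 and −0.27.

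dpy-9 gave the lowest mean of the 5. Its log2 ratios were −2.01, −3.04 and −2.52 on arrays 1, 2 and 3, with a mean of −2.52 ± 0.51 (SD, n = 3), 5.74-fold lower in the adult (95% confidence interval −3.01 to −2.03 on the log2 scale; limma adjusted p = 1.14e-04). The values were lowest on array 2 and nearest to 0 on array 1, and the spread was the widest among the members: 87.3% of all genes or unnamed probes had a smaller SD between arrays. The gene encodes a cuticle collagen, as do the other members, and ranked 155 from the lowest among 15081 named genes.

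dpy-2 followed, with log2 ratios of −2.04, −2.60 and −2.44 on arrays 1, 2 and 3. Its mean was −2.36 ± 0.29, 5.13-fold lower (95% confidence interval −2.76 to −1.96; limma adjusted p = 7.78e-05). As for dpy-9, array 1 was nearest to 0 and array 2 lowest.

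dpy-8 gave −2.23, −1.88 and −2.36, with a mean of −2.16 ± 0.25, 4.46-fold lower (95% confidence interval −2.54 to −1.77; limma adjusted p = 8.57e-05). Here array 2, not array 1, was nearest to 0.

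dpy-7 is the furrow collagen whose promoter is widely used to drive transgenes in the epidermis. Its log2 ratios were −2.21, −2.04 and −2.06 on arrays 1, 2 and 3. The 3 values lay close together, with a mean of −2.10 ± 0.09, 4.3-fold lower (95% confidence interval −2.46 to −1.75; limma adjusted p = 7.74e-05). Of all genes or unnamed probes, 8.99% had a smaller SD between arrays. dpy-2, dpy-8 and dpy-7 ranked 201, 279 and 305 from the lowest among named genes, so that 4 members lay within the lowest 2.02%.

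dpy-3 stood apart from the others by size. Its log2 ratios were −0.27, −0.82 and −0.73, with a mean of −0.61 ± 0.29, 1.53-fold lower (95% confidence interval −1.01 to −0.21; limma adjusted p = 0.0239). Array 1 was nearest to 0. The call did not hold without array 2 (mean −0.50, adjusted p = 0.157) or without array 3 (mean −0.55, adjusted p = 0.129), while without array 1 the mean was −0.78 (adjusted p = 0.0066). The gene ranked 2711 from the lowest among named genes.

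The order from lowest to highest was dpy-9, dpy-2, dpy-8, dpy-7 and dpy-3. Each of the 10 pairs was compared within arrays, where the reference and the array are shared. The probes are not shared, since each gene was read by 1 probe of its own. A difference between probes therefore cannot be told apart from a difference between genes. The 4 pairs with dpy-3 kept their order on all 3 arrays, and each of these differences exceeded 2 SD. dpy-2 lay below dpy-3 by nearly the same amount on every array, with differences of −1.76, −1.78 and −1.71 and a mean of −1.75 ± 0.04. The mean difference from dpy-3 was −1.91 ± 0.26 for dpy-9, −1.55 ± 0.45 for dpy-8 and −1.49 ± 0.39 for dpy-7. Among the other 4 genes no pair kept its order on all 3 arrays, and their mean differences ran from −0.42 ± 0.60 (dpy-9 minus dpy-7; 95% interval −1.91 to 1.08) to −0.05 ± 0.23 (dpy-8 minus dpy-7; −0.63 to 0.52). These 6 differences were therefore within the spread between arrays, though intervals of this width do not show that the genes are alike. The exact sign-flip permutation test, two-sided, gave p = 0.25 for the pairs with dpy-3, the smallest that 3 arrays allow, and adjusted p = 0.625 over the 10 pairs.

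The furrow collagens were set beside the rest of the collagen family. Of 152 measured collagen genes, counting those with col numbers and the furrow and body-shape collagens, dpy-9, dpy-2, dpy-8 and dpy-7 ranked 15, 18, 22 and 23 from the lowest and dpy-3 ranked 64. Among the 147 other collagen genes, 57 were lower and 37 higher, with a median of −0.22 and means from −5.07 to 3.87. These shares were 38.8% and 25.2%, against 18.8% and 19.6% over all genes or unnamed probes. dpy-9, dpy-2, dpy-8 and dpy-7 thus lay in the lower part of a family with genes on either side of 0, and 14 collagens lay below the lowest of them. dpy-3, at −0.61, lay nearer to the median of −0.28 over the 152 collagen genes. Related collagens can share signal between probes, so a single value may hold signal from another gene.

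**Figure D2:**
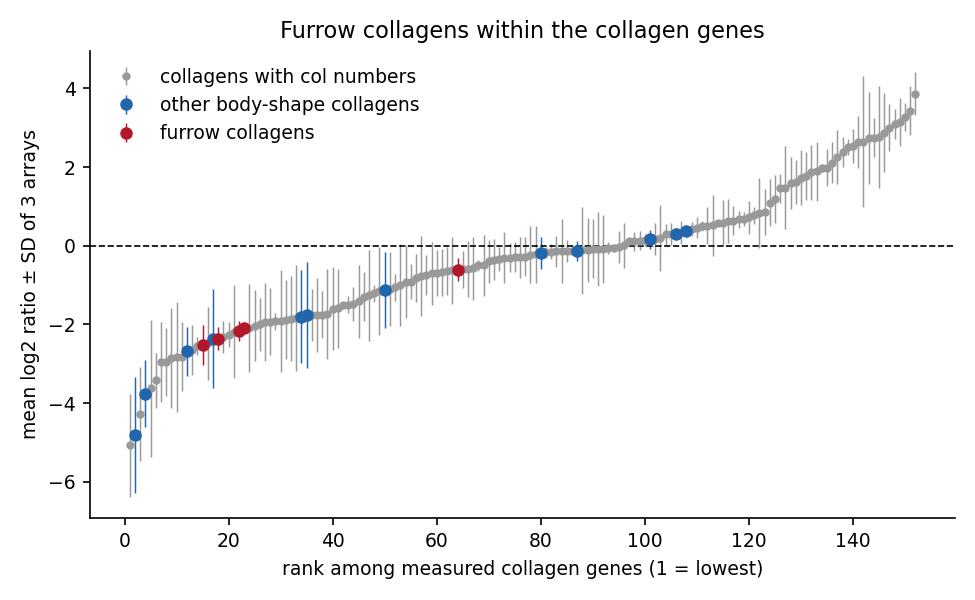
Mean log2 ratio of each of 152 collagen genes against its rank, with bars for the SD of 3 arrays. The furrow collagens (red) take ranks 15, 18, 22, 23 and 64; other body-shape collagens (blue) run from −4.82 to 0.38, and collagens with col numbers are grey.

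The collagens most like them in mutant phenotype are the other body-shape collagens, in which mutations make animals dumpy, rolling, blistered or long. Of 12 measured, 7 were lower and 0 higher, with a median of −1.44 ± 1.00, against 18.8% lower over all genes or unnamed probes. The 3 farthest from 0 were rol-8 at −4.82 ± 1.47, rol-6 at −3.76 ± 0.85 and sqt-2 at −2.68 ± 0.62. The 5 that did not pass (named after their values were known) included the blister collagens bli-1 at 0.38 ± 0.15 and bli-2 at 0.17 ± 0.24, with dpy-5 at 0.31 ± 0.15, dpy-4 at −0.13 ± 0.26 and lon-3 at −0.18 ± 0.41. The collagens dpy-14 and bli-6 were not analysed here. The adult-stage collagens col-7, col-62 and col-19, by contrast, passed on the higher side, 3 of 3, with log2 ratios of 1.59 ± 0.66, 1.90 ± 0.75 and 2.75 ± 0.50; of all genes or unnamed probes 19.6% were higher.

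Array 1 differed from arrays 2 and 3 by gene. For the body-shape collagens its median was −0.34, against −2.31 and −1.66 on arrays 2 and 3, and 6 of 12 lay more than 1 log2 unit above the mean of arrays 2 and 3 there. Among them rol-8 gave −3.20, −6.06 and −5.21 on arrays 1, 2 and 3. The largest such differences after rol-8, at 2.44, were found for dpy-17 (−0.21, −2.54 and −2.56) and sqt-3 (−1.02, −3.51 and −2.58), named after their values were seen. The furrow collagens had array medians of −2.04, −2.04 and −2.36. Their difference of array 1 from the mean of arrays 2 and 3 was −0.16 for dpy-7, −0.11 for dpy-8, 0.49 for dpy-2, 0.50 for dpy-3 and 0.77 for dpy-9, so 0 of 5 exceeded 1. Over all genes or unnamed probes 559 of 19264 exceeded 1, so a count of 0 among 5 is near the background. The count was 0 of 11 for collagen processing genes, 1 of 9 for precuticle genes and 1 of 7 for moulting genes. It was 3 of 5 for the cuticlins and 3 of 9 for the genes induced by furrow loss, both described below. Among the 147 collagens outside the members, body-shape collagens included, it was 34. The median of this difference was 0.49 for the furrow collagens and 1.04 for the body-shape collagens. It was 0.29 for the 147 collagens outside the members, below that of the furrow collagens, and 0.05 over all genes or unnamed probes. With 3 arrays the difference between the lists was not tested. Array 3 minus array 2 had a median of 0.09 over the furrow collagens and 0.52 over the body-shape collagens. It was 0.60 over the 147 collagens outside the members and 0.01 over all genes or unnamed probes.

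**Figure D3:**
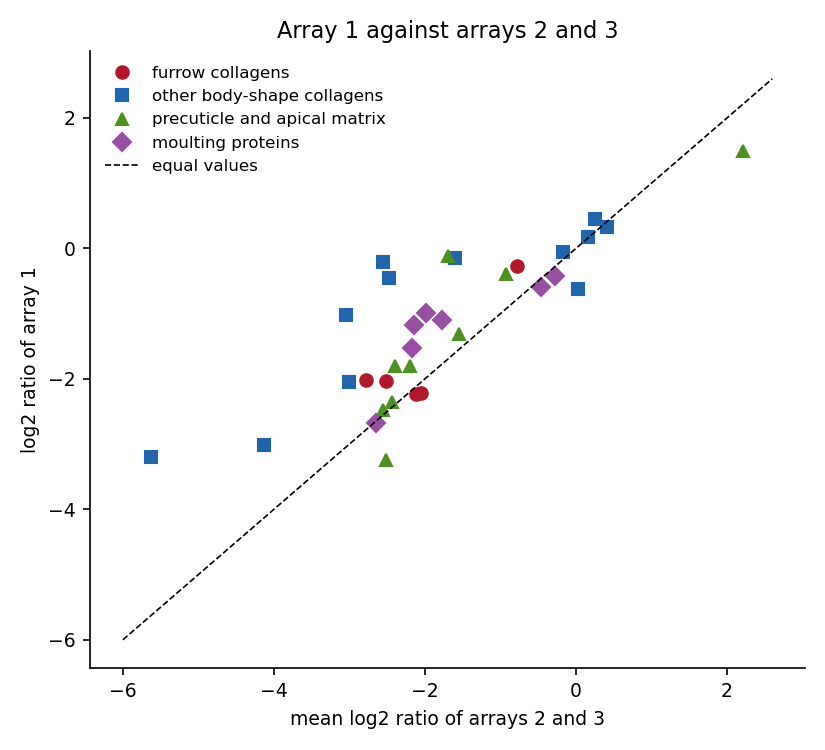
Log2 ratio on array 1 against the mean of arrays 2 and 3 for 4 gene lists; the dashed line marks equal values. The furrow collagens (red circles) lie from 0.16 below the line to 0.77 above it, whereas 6 of 12 other body-shape collagens (blue squares) lie more than 1 above it.

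Of 11 genes that build and process collagen, 3 were lower and 1 higher, with a median of −0.21 ± 0.17. Over all genes or unnamed probes 18.8% were lower and 19.6% higher, so with 11 genes these counts are no result about the list. phy-2, a catalytic subunit of prolyl 4-hydroxylase, which hydroxylates collagen prolines, gave −1.66, −2.27 and −2.24, a mean of −2.06 ± 0.35. dpy-31, an astacin protease that cleaves procollagen, lay at −0.77 ± 0.19, and tsp-15, a tetraspanin that works with the dual oxidase of collagen cross-linking, at −0.61 ± 0.14. bli-4, a proprotein convertase gene, was higher at 0.60 ± 0.10 (named after its value was seen). Without array 1, 5 of the 11 were lower; without array 3, 0 were higher.

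Genes of the transient matrix laid down before each new cuticle, and of moulting, were mostly lower as well. The limma test called 18.8% of all genes or unnamed probes lower and 19.6% higher. Of 9 precuticle and apical matrix genes, 8 were lower and 1 higher, with a median of −2.07 ± 0.27. The leucine-rich repeat gene sym-1 lay at −2.76 ± 0.50, the lipocalin gene lpr-3 at −2.53 ± 0.27 and the zona pellucida domain gene noah-1 at −2.41 ± 0.41. The 1 gene that was higher, egg-6, lay at 1.97 ± 0.42 (named after its value was seen). Of 7 moulting genes, 6 were lower and 0 higher, with a median of −1.66 ± 0.52. mlt-8, mlt-10 and mlt-9, named for the moulting defect on loss of function, lay at −2.66 ± 0.07, −1.96 ± 0.39 and −1.82 ± 0.56.

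The cuticlins, zona pellucida domain proteins of the cuticle of which several form the lateral ridges called alae, gave 4 of 5 lower. The share lower over all genes or unnamed probes was 18.8%. cut-1, cut-3, cut-6 and cut-5 lay at −3.97 ± 1.31, −3.24 ± 0.81, −2.53 ± 0.63 and −0.98 ± 0.04, and cut-4, which did not pass, at −0.48 ± 0.28.

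**Figure D4:**
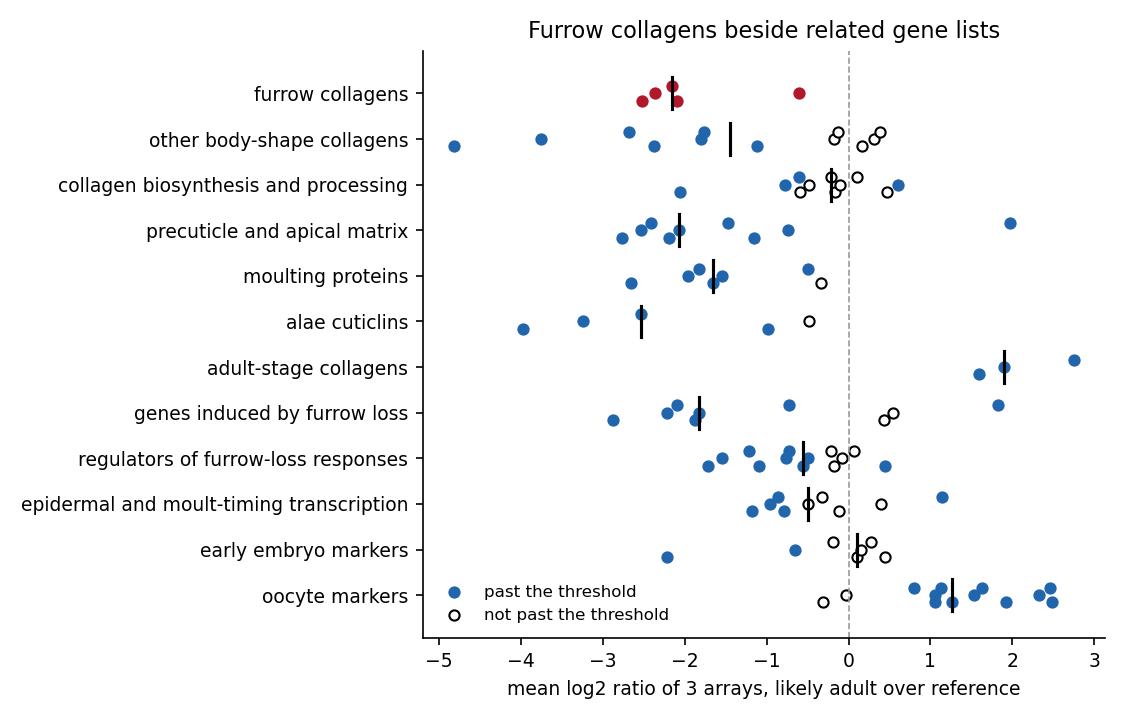
Mean log2 ratio of every measured gene of 12 lists; filled points passed limma's adjusted threshold (furrow collagens red, others blue), open points did not, and black bars are list medians. The furrow collagen median of −2.16 lies near those of precuticle genes (−2.07), genes induced by furrow loss (−1.83) and alae cuticlins (−2.53), and the medians of adult-stage collagens (1.90) and oocyte genes (1.26) lie above 0.

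Genes that are known to rise in this species when furrows are lost went both ways. Of 9 measured, 6 were lower and 1 higher, with a median of −1.83 ± 0.73. The background over all genes or unnamed probes was 18.8% lower and 19.6% higher, and 1 higher of 9 is near it. The epidermal antimicrobial peptide gene nlp-29 gave −2.16, −3.29 and −3.20, a mean of −2.88 ± 0.63. nlp-31 and the caenacin gene cnc-2 lay at −2.22 ± 0.68 and −2.10 ± 0.78. The osmotic response gene gpdh-1, whose enzyme serves glycerol synthesis, was higher, with 1.55, 1.98 and 1.92 on the 3 arrays and a mean of 1.82 ± 0.23 (limma adjusted p = 1.52e-04; named after its value was seen). The other osmotic gene, hmit-1.1, lay at 0.43 ± 0.39 and the detoxification gene gst-4 at 0.54 ± 0.37; neither passed. Without array 2, or after quantile normalisation, 2 genes of this list were higher. The antimicrobial genes and gpdh-1 thus lay on opposite sides of 0 on each of the 3 arrays.

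Of 13 genes that act in or on these responses, 8 were lower and 1 higher, with a median of −0.55 ± 0.16. Set against 18.8% lower and 19.6% higher over all genes or unnamed probes, 1 higher of 13 is no result about the list. osm-7, tir-1, which encodes the TIR-domain adaptor of the epidermal immune pathway, and osm-8 lay at −1.71 ± 0.26, −1.55 ± 0.32 and −1.21 ± 0.33. The gene that was higher, named after its value was seen, was skn-1, a transcription factor of detoxification, at 0.45 ± 0.09. That call was lost when arrays were centred on their medians, with or without scaling, and when any 1 array was left out. Without array 2 or without array 3, 5 of the 13 were lower.

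Among 9 transcription regulators of the epidermis and of moult timing, 4 were lower and 1 higher, with a median of −0.50 ± 0.30. All genes or unnamed probes gave 18.8% lower and 19.6% higher, so 1 higher of 9 is near the background. The zinc-finger gene bed-3 and the nuclear receptor gene nhr-25, both needed for moulting, lay at −1.18 ± 0.30 and −0.96 ± 0.20. nhr-23, a nuclear receptor needed for moulting that also acts in sperm development, was higher at 1.14 ± 0.16, with 0.96, 1.25 and 1.20 on the 3 arrays.

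The named genes outside the members whose 3 values came closest to the members' mean profile of −1.75, −2.08 and −2.02 were T23B3.2, spp-18, ttr-17, flp-6 and marc-5. Their root mean square differences from it were 0.04, 0.07, 0.08, 0.10 and 0.11 log2 units over the 3 arrays. No member lay as close to its own mean profile: the difference was 0.27 for dpy-7, 0.36 for dpy-8, 0.42 for dpy-2, 0.64 for dpy-9 and 1.34 for dpy-3. With dpy-3 left out of the profile, a choice made after seeing the data, the closest genes were hpo-28, R13H4.5, nlp-47, nlp-15 and obr-2, at 0.08 to 0.10. With 3 points per gene such likeness is a description of these arrays.

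The nearest measured protein-coding genes on each side of the members were looked up in the RefSeq gene table, a comparison added after seeing the data. Of these 10 neighbours, 2 were lower and 0 higher, with a median of −0.20; this share is near the 18.8% lower among all genes or unnamed probes. The lower genes were the neighbours of dpy-2, T14B4.19 at −1.55 ± 0.71 and T14B4.5 at −0.90 ± 0.35. T14B4.19 overlaps another protein-coding gene in that table, so which transcript its probe reads was not settled. The 8 neighbours of dpy-3, dpy-7, dpy-8 and dpy-9 did not pass; those of dpy-7, named after their values were seen, were ceh-14 at −0.15 ± 0.58 and glb-16 at −0.52 ± 0.56.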

How the data were processed

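The authors deposited a log2 ratio for each probe on each of 3 arrays; steps between scan and ratio are not stated in the labels. The base was settled from the deposited log2 values: 99.98% of them became whole multiples of 0.001, to within 0.01 of a step, when 2 was raised to them. Symbols came from the platform annotation, updated by gene identifier through a RefSeq table of WBcel235, used for names and neighbours only; 15655 of 20000 probes had 1 symbol, 198 several and 4147 none listed. Probes of a symbol were averaged, and genes with values on all 3 arrays went into limma 3.58.1 (R 4.3.3, lmFit and eBayes). The test was two-sided against a mean of 0, with Benjamini-Hochberg adjustment. It was also run on data simulated from limma's own model, which checks the code and not the calls on these arrays. The reference's own spread does not enter, and channels were not swapped. Precision is limited by 3 arrays. Named genes were all 5 members, all genes of lists of 5 or fewer, the 3 farthest from 0 of longer lists, and the 5 closest in profile. Members and lists were chosen with earlier results of these data known, so their counts are no independent support. Pair differences used scipy 1.17.1. Alternatives covered averaging, scaling, missing values, the test and leaving out arrays.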

Additional observations from a re-analysis of the deposited data

How the results depend on the processing

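All 5 furrow collagens stayed below 0 under the 10 alternatives, and 43 of 50 means kept their side of the threshold. Means ran from −2.78 to −2.26 for dpy-9, −2.52 to −2.24 for dpy-2, −2.29 to −2.06 for dpy-8, −2.14 to −2.05 for dpy-7 and −0.78 to −0.50 for dpy-3. The exceptions were dpy-3 without array 2 or 3 and all 5 genes in a one-sample test without moderation. That test called 0 of 5 members (smallest adjusted p = 0.0734; 4 at an unadjusted p under 0.05) and 0 genes in either direction (smallest adjusted p = 0.0682; 6188 at an unadjusted p under 0.05), against 3624 lower and 3769 higher by limma; by construction it has only the 3 values of each gene. With 1 array left out, 4 to 5 members and 2676 to 4184 genes were lower, and 2676 to 4274 genes were higher. Then 4 to 9 pairs of members kept their order on the remaining arrays, the count of 9 being that without array 1. A pair keeps its order more easily on fewer arrays, so these pair counts are not comparable with the count on all 3 arrays. Of 240 counts over the other lists, 210 stayed within 1.5 times. These include counts that were 0 both in the main fit and in the alternative, so the share overstates how stable the counts are. No paired analysis was possible because there is 1 group. Signal over background was not used here, so faint and bright spots were treated alike.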
